A study of Mus musculus with 18 samples.

Results

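The proteasome, the protease that degrades ubiquitin-tagged proteins, and the ubiquitin conjugating enzymes that help to tag them were followed in mouse kidney by the symbols of their genes. A gene was included if its single annotated symbol began with Psma to Psmg and a digit, or with Ube2, and if it had a value on 9 or more of 18 arrays. This held for 64 of the 67 matching genes, measured by 100 probes, out of 6231 named genes with as many values. Psme3ip1, Psmg4 and Ube2j1 had fewer values and are only named here. The 64 genes comprised 15 core particle subunits, 18 regulatory particle genes, 6 activators and assembly factors, and 24 Ube2 enzymes or enzyme variants. The remaining gene, Psmc3ip, shares the naming pattern but encodes a partner protein of a subunit, not a subunit. The regulatory class holds all other Psmc and Psmd genes, of which some, such as Psmd9 and Psmd10, encode assembly chaperones rather than subunits.

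The core particle is a barrel of stacked rings in which alpha subunits gate the entrance and beta subunits carry the proteolytic sites. The regulatory particle caps the barrel, where non-ATPase subunits receive and deubiquitinate substrates and ATPase subunits unfold them. Ubiquitin passes from an activating enzyme to a conjugating enzyme (E2) and then, with a ligase, to the substrate; in normal oxygen the hypoxia-inducible factors are degraded along this route.

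Pups of the CD1 stock were kept from postnatal day 2 for 1, 2 or 4 weeks in chronic constant hypoxia (11% oxygen), in chronic intermittent hypoxia (switched every 4 min between 21% and 11% oxygen) or in normoxia. Each of the 9 combinations had 2 arrays, called A and B, and each array compared kidney cDNA of 1 animal labelled male (Cy5) with that of 1 labelled female (Cy3) kept in the same condition. The value is the log2 ratio of the channels, given here relative to the median of its array. If hypoxia raised a transcript equally in both animals of a pair, the ratio would not move, so what is compared is the difference between paired animals. The sources used here do not give the numerator channel, and each sign is that of the deposited value.

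The probes with a value made up 81.8% to 88.8% of the array on constant hypoxia arrays, 42.9% to 65.7% on intermittent hypoxia arrays and 41.0% to 67.9% on normoxia arrays. Before centring, the array medians ran from -1.17 to -0.15 in constant hypoxia, from -0.03 to 0.03 in intermittent hypoxia and from -0.07 to 0.09 in normoxia. The effect of constant hypoxia and the different footing of its 6 arrays cannot be told apart. Titles set the groups, and 2 arrays carry another label at odds with the title: for intermittent hypoxia 2 weeks A the Cy3 animal bears a 1-week name, and for constant hypoxia 4 weeks A the text on the Cy3 animal speaks of 2 weeks. Genes of the sex chromosomes gave no uniform check of the labels: the X-linked Kdm5c was negative on 18 of 18 arrays, Kdm6a on 15 of 18 and Xist on 12 of 15, but X-linked Ddx3x and Y-linked Eif2s3y were each positive on 11 and negative on 7. The ratio of Eif2s3y ran from -2.19 to 1.63. Each array correlated positively with the mean of the others. The correlations ran from 0.47 to 0.73 in constant hypoxia, 0.25 to 0.60 in intermittent hypoxia and 0.15 to 0.56 in normoxia. Because the dyes were not swapped, dye effects of the spots and a shared direction of the pairs cannot be told apart in them. A ratio gives no level, so the presence of kidney markers could not be checked; 5 of 17 listed nephron segment genes had values on 9 or more arrays.

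**Figure D1:**
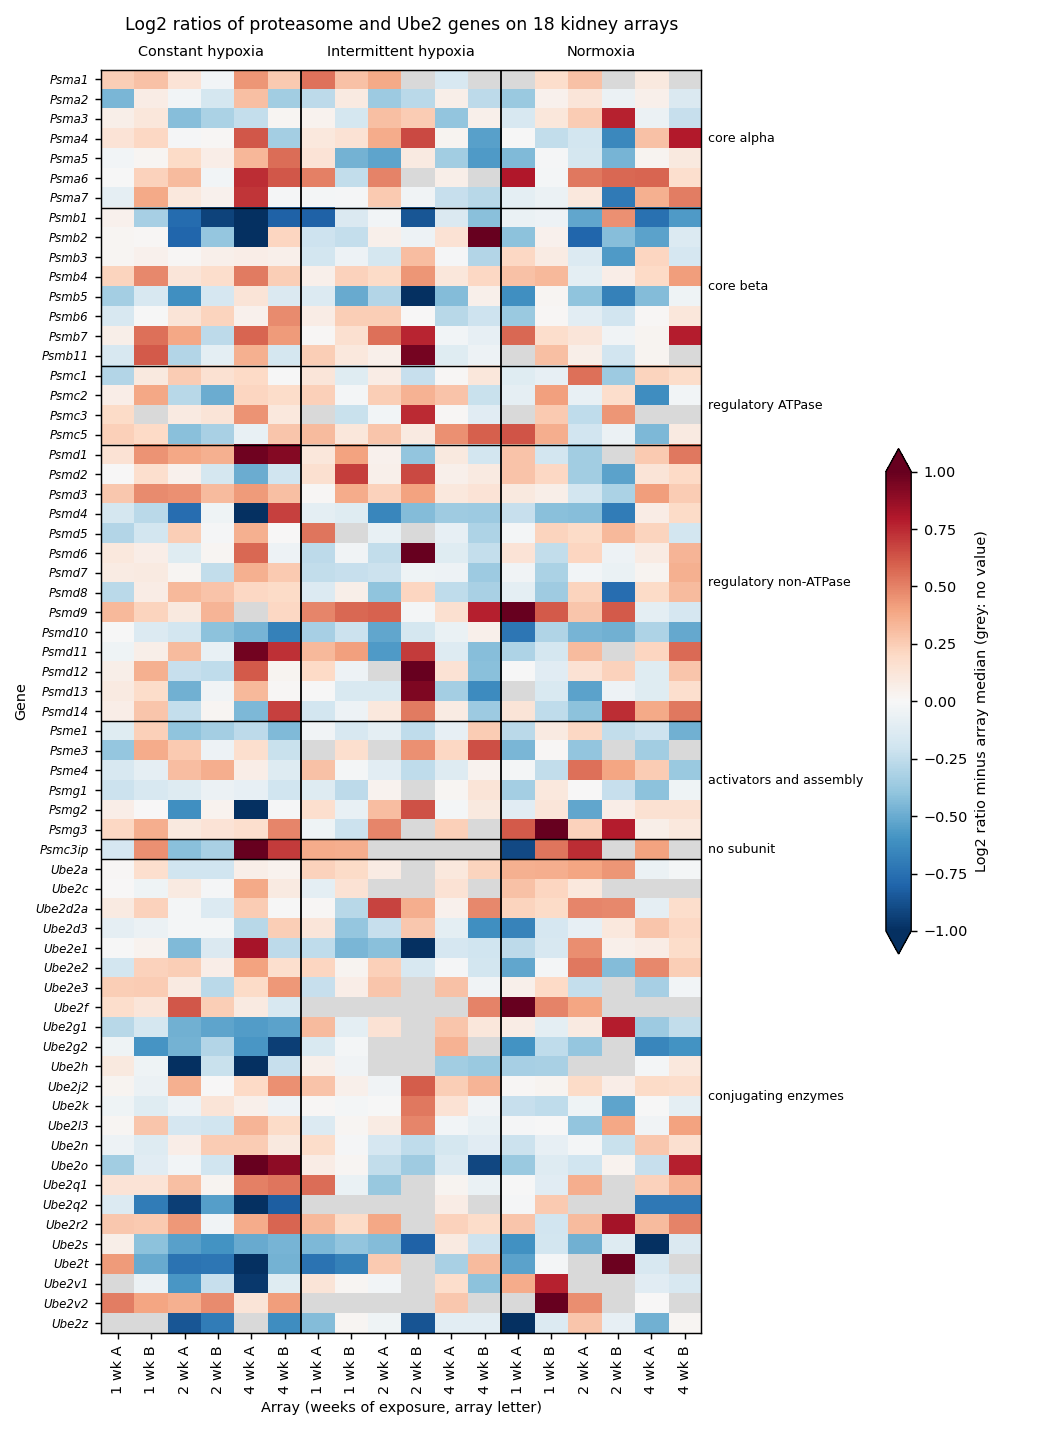
Log2 ratio minus the array median for each of the 64 genes (rows, by class) on the 18 arrays (columns, by condition, weeks and array letter). Colours saturate at -1 and 1 and grey marks a missing value; rows such as Psmd10 and Psmb4 keep nearly one colour, with 17 of 18 arrays of one sign, while no class forms a block that separates the conditions.

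No member differed between conditions after adjustment over all features (limma, Benjamini-Hochberg, threshold 0.05). For constant hypoxia against normoxia 0 of 57 members with an estimate passed, against 0% of all features. At an unadjusted p under 0.05 there were 7 members (12.3%), against 8.61% of all features. For intermittent hypoxia against normoxia 0 of 55 passed, against 0% of all features, with 4 (7.27%) at an unadjusted p under 0.05 against 4.69%. For intermittent against constant hypoxia 0 of 56 passed, against 0.0299%, with 10 (17.9%) at an unadjusted p under 0.05 against 12.6%. The members' shares lie near those of the whole table in all 3 comparisons, and the test without moderation also called 0 members in each. Without constant hypoxia 4 weeks B, which left its group at 1 array, 2 of 56 members passed in constant hypoxia minus normoxia (Psmb1 and Ube2t, 3.57%), against 8.65% of all features. In intermittent minus constant hypoxia 6 of 55 then passed (Psmb2, Psmd1, Psmg2, Ube2e1, Ube2g1 and Ube2o, 10.9%), against 11.6% of all features. These shares are near or below the background, so the calls gained say nothing particular about the members. In RNA of whole kidney, fewer cells of a type and less RNA per cell cannot be told apart. The median standard error of a member's difference was 0.15 in constant hypoxia minus normoxia and 0.16 in intermittent hypoxia minus normoxia, so differences of the size of most members' own could not be detected with these arrays.

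As classes, the core particle, the regulatory particle and the conjugating enzymes also lay close to the rest of the table. In constant hypoxia minus normoxia the median difference was 0.04 for the core particle (10 of 15 genes positive), 0.02 for the regulatory particle (11 of 17 positive) and 0.02 for the conjugating enzymes (10 of 18 positive), beside -0.03 for all 7344 features, of which 45.3% were positive. In intermittent hypoxia minus normoxia it was -0.05, 0.04 and -0.03 in the same order of classes, with 26 of 55 members positive (47.3%), beside 0.01 and 52.1% for all features. In intermittent minus constant hypoxia it was -0.06, -0.03 and -0.02, with 25 of 56 members positive (44.6%), beside 0.04 and 57.4% for all features. The medians of the core particle on single arrays ran from -0.03 to 0.33 in constant hypoxia, from -0.20 to 0.19 in intermittent hypoxia and from -0.19 to 0.10 in normoxia. Those ranges overlap, as do the ranges of the regulatory particle and of the conjugating enzymes in the plot of class medians.

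**Figure D2:**
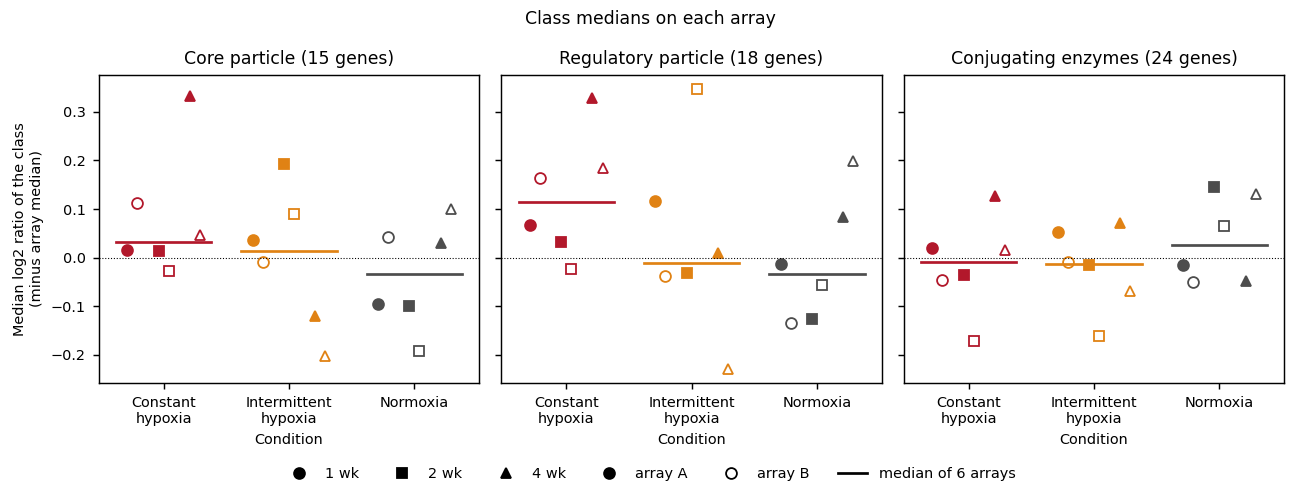
Median log2 ratio of each class (y axis, minus the array median) on every array by condition (x axis), with symbols for weeks, filled for array A and open for array B; lines mark the median of 6 arrays. The conditions overlap in all 3 classes, and the highest core particle value, 0.33, is that of constant hypoxia 4 weeks A.

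Among the alpha subunits of the core, the differences between conditions ran in both directions. Psma5 had -0.03, 0.13 and 0.56 as its lowest, median and highest log2 ratio on the constant hypoxia arrays, -0.57, -0.41 and 0.14 on the intermittent hypoxia arrays, and -0.47, -0.09 and 0.10 on the normoxia arrays. The constant hypoxia arrays tended to lie above the others, but all 3 ranges overlapped. The difference was 0.35 ± 0.15 (SE) in constant hypoxia minus normoxia (limma adjusted p = 0.571) and -0.47 ± 0.15 in intermittent minus constant hypoxia (adjusted p = 0.282). Psma3 had the most negative difference of the ring in constant hypoxia minus normoxia, -0.24 ± 0.13. Psma6 was the most negative and Psma4 the most positive in intermittent hypoxia minus normoxia, with differences of -0.21 ± 0.21 and 0.12 ± 0.18.

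The beta subunits held both the steadiest and one of the most variable ratios of the complex. Psmb4, a structural beta subunit, was positive on 17 of 18 arrays with a standard deviation of 0.16, the lowest of the core particle, whereas Psmb1, another subunit without a catalytic site, was negative on 16 of 18 with a standard deviation of 0.53, the highest. Psmb1 had -1.92, -0.79 and 0.04 as lowest, median and highest value in constant hypoxia, -0.86, -0.28 and -0.03 in intermittent hypoxia, and -0.74, -0.29 and 0.46 in normoxia. Its lowest value is that of constant hypoxia 4 weeks A, and the ranges overlap. The constant hypoxia minus normoxia difference was -0.54 ± 0.23 (limma adjusted p = 0.569), and it ran from -0.72 to -0.35 when single arrays were left out.

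Psmb2, also without a catalytic site, had -0.24, 0.00 and 1.02 in intermittent hypoxia against -0.79, -0.42 and 0.04 in normoxia, with overlapping arrays and a difference of 0.50 ± 0.23 (limma adjusted p = 0.983). Psmb5, which carries the chymotrypsin-like site, was negative on 15 of 18 arrays, with -2.27 on intermittent hypoxia 2 weeks B. Its intermittent hypoxia minus normoxia difference of -0.24 ± 0.27 turned to 0.09 without that array. Psmb6, with the caspase-like site, had a constant hypoxia minus normoxia difference of 0.20 ± 0.12. Psmb11 encodes a subunit known from the thymic proteasome, and its ratio ranged from -0.30 to 0.96 over 16 arrays. The interferon-inducible beta variants Psmb8, Psmb9 and Psmb10 are not analysed here.

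In the regulatory particle, the largest differences were those of Psmd genes. Psmd1, a large scaffold subunit, had 0.14, 0.42 and 0.97 as lowest, median and highest value in constant hypoxia, against -0.40, 0.07 and 0.40 in intermittent hypoxia. On the 5 normoxia arrays with a value it had 0.28, -0.18, -0.35, 0.26 and 0.53. It was positive on 6 of 6 constant hypoxia arrays and highest on both 4-week arrays, 0.97 and 0.92, though the ranges overlap. The differences were 0.50 ± 0.15 in constant hypoxia minus normoxia (limma adjusted p = 0.523) and -0.52 ± 0.14 in intermittent minus constant hypoxia (adjusted p = 0.220).

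Psmd2, the other large scaffold subunit, was positive on 6 of 6 intermittent hypoxia arrays, with 0.05, 0.12 and 0.69, against -0.50, -0.09 and 0.16 in constant hypoxia. The intermittent minus constant hypoxia difference was 0.39 ± 0.14 (limma adjusted p = 0.317), but the groups average different probes. Of its 3 probes, 1 had values on the 6 constant hypoxia arrays alone, down to -1.65, and the pairwise correlations ran from -0.67 to 0.52 over 6 to 12 arrays. The probe with a value on all 18 arrays gave 0.27 ± 0.14 by itself. Psmd3, a lid subunit, was positive on 6 of 6 arrays in constant hypoxia (0.27, 0.37 and 0.47) and in intermittent hypoxia (0.01, 0.18 and 0.40), against 4 of 6 in normoxia (-0.32, 0.08 and 0.42). The negative normoxia values were those of both 2-week arrays, and the constant hypoxia minus normoxia difference was 0.32 ± 0.11 (limma adjusted p = 0.523). Psmd7, also of the lid, was negative on 6 of 6 intermittent hypoxia arrays (-0.36, -0.23 and -0.05), against -0.25, 0.09 and 0.35 in constant hypoxia, with a difference of -0.29 ± 0.12 (limma adjusted p = 0.374).

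The 4 ATPase genes differed little. Psmc5 was positive on 6 of 6 intermittent hypoxia arrays, between 0.09 and 0.60, against -0.42 to 0.28 in constant hypoxia and -0.45 to 0.63 in normoxia. Its difference was 0.32 ± 0.13 in intermittent minus constant hypoxia (limma adjusted p = 0.357), and it became -0.04 once a running median along the probe number was removed. The 3 probes of Psmc5 correlated at 0.15 to 0.29. On intermittent hypoxia 2 weeks A, 2 weeks B and 4 weeks B only 1 of them had a value. The other probes had values of both signs in intermittent hypoxia, down to -0.52 on 1 week B. The other named ATPase differences were 0.05 ± 0.15 for Psmc2 in constant hypoxia minus normoxia, -0.07 ± 0.16 for Psmc1 in intermittent hypoxia minus normoxia, and -0.17 ± 0.21 for Psmc3 in intermittent minus constant hypoxia.

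**Figure D3:**
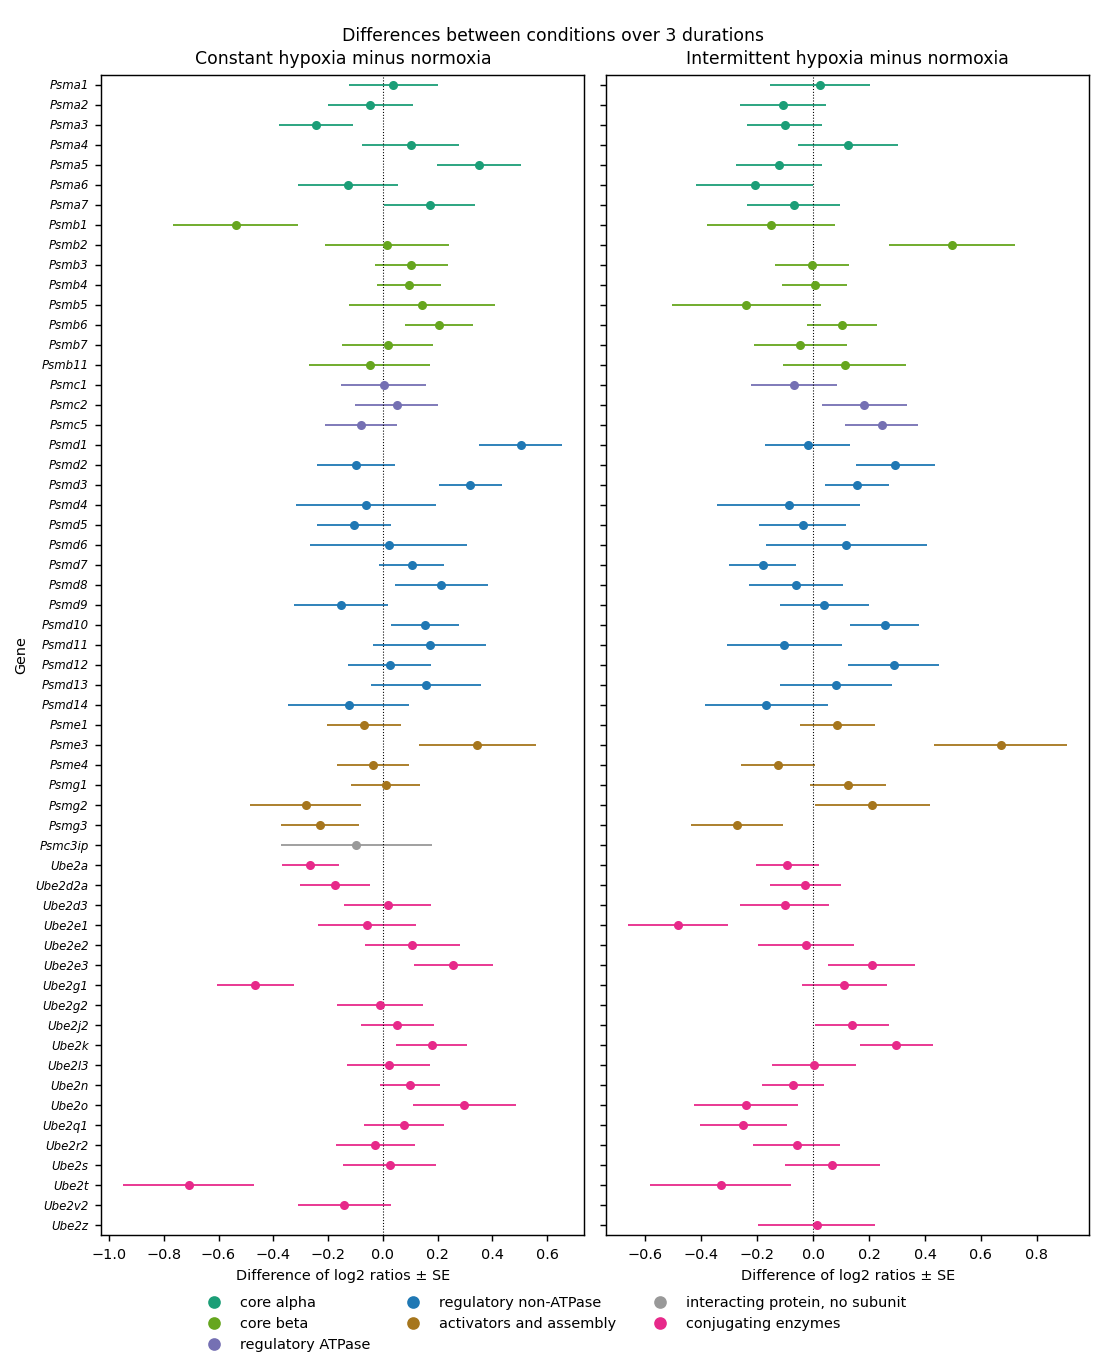
Difference of log2 ratios between conditions with its SE (x axes) for each gene with an estimate (rows, coloured by class), for constant hypoxia minus normoxia on the left and intermittent hypoxia minus normoxia on the right. Ube2t (-0.71) on the left and Psme3 (0.67) on the right lie farthest out, and no gene passed the adjusted test.

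Of the members with 4 or more values in each condition, only Psme3 had intermittent hypoxia arrays that did not overlap its normoxia arrays. It encodes PA28 gamma, a nuclear activator that opens the core particle without ATP or ubiquitin. Of the 6 arrays of each condition 4 gave a value: 0.17, 0.46, 0.21 and 0.64 in intermittent hypoxia, against -0.46, 0.01, -0.39 and -0.35 in normoxia. Every intermittent hypoxia value lies above every normoxia value. Separation of this kind held for 1 of 56 members with 4 or more values in each condition, against 0.323% of all features. The difference was 0.67 ± 0.24 with the missing arrays dropped (limma unadjusted p = 0.0179, adjusted p = 0.983), and from 0.59 to 0.75 when single arrays were left out. In constant hypoxia the same gene spread from -0.39 to 0.37. Of the assembly chaperones of the core, Psmg2 had a difference of 0.49 ± 0.20 in intermittent minus constant hypoxia (limma adjusted p = 0.368), with -1.31 on constant hypoxia 4 weeks A. Psmg3 had a difference of -0.27 ± 0.16 in intermittent hypoxia minus normoxia, and Psme4, the activator PA200, one of -0.09 ± 0.13 in intermittent minus constant hypoxia.

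Among the conjugating enzymes, Ube2g1 separated intermittent from constant hypoxia. It is one of the E2 enzymes that act in degradation at the endoplasmic reticulum. The 5 intermittent hypoxia arrays with a value had 0.31, -0.09, 0.15, 0.28 and 0.11, against -0.56, -0.51 and -0.18 as lowest, median and highest value of the 6 constant hypoxia arrays. The normoxia arrays ran from -0.36 to 0.79 and overlapped both. This separation held for 1 of 57 members, against 1.15% of all features, while 0 of 58 members separated constant hypoxia from normoxia, against 0.451%. The differences were 0.58 ± 0.15 in intermittent minus constant hypoxia (limma adjusted p = 0.205) and -0.47 ± 0.14 in constant hypoxia minus normoxia (adjusted p = 0.523). Its 2 probes correlated at 0.62 over the 10 arrays that had both, but intermittent hypoxia arrays were not among these. The intermittent hypoxia values came from 1 probe, while the constant hypoxia values averaged 2. That probe alone ran from -0.65 to -0.29 in constant hypoxia, still below every intermittent hypoxia value. Ube2g2, of the same pathway, was negative on 6 of 6 constant hypoxia arrays and on 5 of 5 normoxia arrays with a value. Its constant hypoxia minus normoxia difference was -0.0093 ± 0.16. On the 3 intermittent hypoxia arrays with a value it ran from -0.15 to 0.35, above every normoxia value. With 3 values it was not counted among the separated members.

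Ube2t, the E2 of the Fanconi anaemia DNA repair pathway, had the most negative constant hypoxia minus normoxia difference of all members, -0.71 ± 0.24 (limma adjusted p = 0.523). Its values were -1.16, -0.61 and 0.42 in constant hypoxia, against -0.54, -0.02, 0.98 and -0.16 on the 4 normoxia arrays with a value. The groups overlap, and the 0.98 of normoxia 2 weeks B is the highest of the gene. Ube2a, which ubiquitinates PCNA and histone H2B, had -0.20, 0.03 and 0.17 in constant hypoxia against -0.06, 0.36 and 0.44 in normoxia, a difference of -0.26 ± 0.10 (limma adjusted p = 0.550). Its probes correlated at -0.38 over 13 arrays.

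Ube2e1 was negative on 6 of 6 intermittent hypoxia arrays (-1.05, -0.34 and -0.17), against -0.45, -0.07 and 0.82 in constant hypoxia and -0.26, 0.06 and 0.47 in normoxia. The ranges overlap, and the differences were -0.48 ± 0.18 in intermittent hypoxia minus normoxia (limma adjusted p = 0.983) and -0.42 ± 0.18 in intermittent minus constant hypoxia (adjusted p = 0.375). The 2 probes of Ube2e1 correlated at 0.05 over 16 arrays. The -1.05 came from 1 probe alone and the 0.82 from the other alone. On intermittent hypoxia 4 weeks B they had 0.20 and -0.60. Ube2k, which extends K48-linked chains that mark proteins for the proteasome, was negative on 6 of 6 normoxia arrays and on 3 of 6 in intermittent hypoxia, 1 of these at -0.0001. The difference was 0.30 ± 0.13 (limma adjusted p = 0.983). Its 3 probes correlated at -0.40 to 0.09 and had values on different arrays. Where it had a value in normoxia, 1 probe gave 0.13, 0.24, 0.12 and -0.18. Ube2o, a large enzyme that joins E2 and ligase activity, had -0.54 ± 0.19 (adjusted p = 0.299) and Ube2q1 -0.33 ± 0.15 (adjusted p = 0.390) in intermittent minus constant hypoxia.

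**Figure D4:**
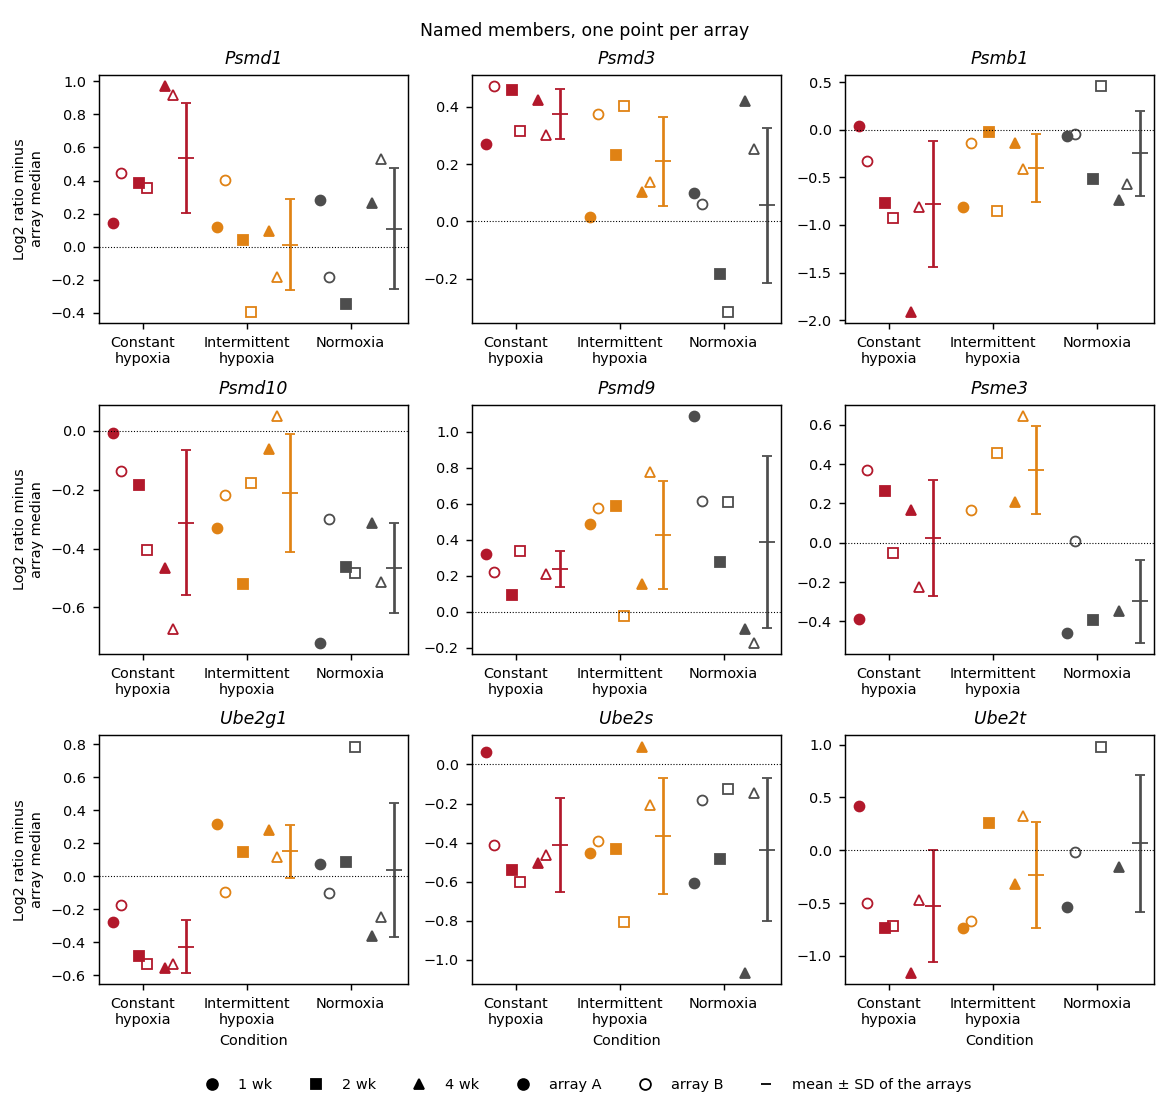
Log2 ratio minus the array median (y axes) of 9 named genes, with 1 point per array by condition (x axes), symbols for weeks, filled for array A and open for array B, and the mean ± SD of the arrays with a value. Psme3 separates intermittent hypoxia from normoxia and Ube2g1 intermittent from constant hypoxia; the other panels overlap.

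A second question was whether the ratio itself, within a condition, differed from 0. Because the dyes were not swapped, a spot's dye effect and a difference between the paired animals cannot be told apart in such a mean. In constant hypoxia 11 of 63 members passed (17.5%), against 14% of all features. In normoxia 2 of 58 passed (3.45%), against 3.31%, and in intermittent hypoxia 1 of 57 (1.75%), against 7.6%. These shares are near the background or below it. Removing a running median along the probe number left none of the 14 calls, and without constant hypoxia 1 week B, 2 weeks A or 2 weeks B the count was 1 each time, against 25 without constant hypoxia 4 weeks B and 24 without intermittent hypoxia 2 weeks A. The whole table moved likewise, with 2.1%, 2.1% and 2.27% of all tests called in the 3 first cases, 15.6% without constant hypoxia 4 weeks B and 13.6% without intermittent hypoxia 2 weeks A, beside 14.1% and 14.5% of the members' tests in these last cases.

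The calls of the proteasome proper were mixed in sign. Psmd10, known as gankyrin and as a chaperone of regulatory particle assembly, was negative in 2 conditions: -0.31 ± 0.09 (SE) in constant hypoxia (limma adjusted p = 0.0333) and -0.47 ± 0.09 in normoxia (adjusted p = 0.0165), with -0.72, -0.47 and -0.30 as lowest, median and highest normoxia value. It was negative on 17 of 18 arrays, though its probes correlated at -0.10 over 17 arrays. Psmd9, another assembly chaperone, averaged 0.43 ± 0.11 in intermittent hypoxia (limma adjusted p = 0.0392) and was positive on 5 of 6 of those arrays. Psmg3, an assembly chaperone of the core, averaged 0.47 ± 0.10 in normoxia (limma adjusted p = 0.0285), where it was positive on 6 of 6 arrays with a highest value of 1.04. In constant hypoxia Psmd1 averaged 0.54 ± 0.10, Psmd3 0.38 ± 0.08, Psmb4 0.29 ± 0.08 and Psmb1 -0.78 ± 0.16, with limma adjusted p between 0.0112 and 0.0333. With the running median along the probe number removed, these means were 0.20, 0.19, 0.14 and -0.32. Those of Psmd10 were then -0.11 in constant hypoxia and -0.28 in normoxia. Psmd9 then averaged 0.21 in intermittent hypoxia and Psmg3 0.25 in normoxia.

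The 6 conjugating enzymes called in constant hypoxia were mostly negative. Ube2g1 averaged -0.43 ± 0.10, Ube2g2 -0.49 ± 0.10, Ube2t -0.53 ± 0.15 and Ube2q2 -0.98 ± 0.20, the last with -2.72 on constant hypoxia 4 weeks A. Ube2s, which elongates K11-linked chains for the anaphase-promoting complex, averaged -0.41 ± 0.12 (limma adjusted p = 0.0386) and was negative on 16 of 18 arrays over all conditions. Ube2v2, a variant without a catalytic site that works with Ube2n in K63-linked chains, averaged 0.38 ± 0.10 (limma adjusted p = 0.0406). It was the 1 member of 64 (1.56%) with a single sign on every array that gave a value, positive on 10 of 10, against 3.38% of all features. With the running median along the probe number removed, the 6 means lay closer to 0. They were -0.19 for Ube2g1, -0.31 for Ube2g2, -0.15 for Ube2t, -0.039 for Ube2q2, 0.026 for Ube2s and 0.16 for Ube2v2.

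The sequences upstream of the members that passed one of these tests or separated 2 conditions were searched for the core of the hypoxia response element (ACGTG) and of the antioxidant response element (TGACNNNGC), the element through which NRF1 and NRF2 are known to act on proteasome genes. Windows of 250 bases before to 50 after the RefSeq start (GRCm38.p6) were given for 55 of the 67 matching genes, and both strands were read. ACGTG stood in 14 of these 55 windows (25.455%), against 21.78% of 27025 genes, and TGACNNNGC in 10 (18.182%), against 13.991%. Both shares are near those of all genes. Of the 14 genes called or separated, Psmd9, Psme3, Ube2q2 and Ube2s held a match, printed 5′ to 3′ with the motif or its reverse complement in capitals. Psmd9 lies on the plus strand (chr5:123228133-123228189), Psme3 on the plus strand (chr11:101316144-101316200), Ube2q2 on the plus strand (chr9:55149210-55149270) and Ube2s on the minus strand (chr7:4812387-4812443).
Psmd9, TGACNNNGC: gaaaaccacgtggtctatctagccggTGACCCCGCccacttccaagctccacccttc
Ube2q2, TGACNNNGC: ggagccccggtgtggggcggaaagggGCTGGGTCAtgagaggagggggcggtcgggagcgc
Psme3, ACGTG: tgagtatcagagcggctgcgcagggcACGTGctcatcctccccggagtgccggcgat
Ube2s, ACGTG: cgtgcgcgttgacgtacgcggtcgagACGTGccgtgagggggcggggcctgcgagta
In Psmd9 and Psme3 the ACGTG match reads the same on both strands with 1 more base, as CACGTG, which is also the E-box. Psmb4, Psmd1, Psmd10, Psmg3, Ube2g1 and Ube2t had a window without either string. For Psmb1, Psmd3, Ube2g2 and Ube2v2 no window was given, so they could not be searched. A match is a run of letters in this window, and binding was not measured.

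By duration, no member passed in constant hypoxia minus normoxia at 1, 2 or 4 weeks, against 0.0657%, 0.063% and 0.0222% of all features, or in intermittent hypoxia minus normoxia, against 0%, 0.162% and 0%. At an unadjusted p under 0.05 there were 2, 8 and 4 members in constant hypoxia minus normoxia, against 6.53%, 10.3% and 7.44% of all features and 3.17%, 13.1% and 6.56% of the members. In intermittent hypoxia minus normoxia there were 1, 8 and 8 members (1.64%, 14.3% and 13.3%), against 4.56%, 14% and 9.48% of all features. Without moderation 1 difference passed, that of Ube2a at 2 weeks of constant hypoxia. Each of these values rests on at most 2 arrays against 2. Without constant hypoxia 4 weeks B, Psmd4, Psmg2, Ube2h and Ube2q2 passed at 4 weeks of constant hypoxia, each negative (6.78% of the members, against 11.7% of all features). Without normoxia 2 weeks A, Ube2g1 passed at 2 weeks of constant hypoxia (-1.29), 1 of 50 members (2%), against 1.47% of all features. Without intermittent hypoxia 2 weeks A, Psmb5, Psmd2, Psmd6, Psmd13, Ube2e1 and Ube2k passed at 2 weeks of intermittent hypoxia (13.3%, against 13.9%). These shares too are near or below the background. Such a call rests on 1 remaining array, which the fit takes to vary like the others. Psmd4, Psmg2, Ube2h and Ube2q2 were each read by 1 probe, numbered 13985, 15204, 15303 and 14431 of 16128. On constant hypoxia 4 weeks A, the remaining array, they had -1.32, -1.31, -2.00 and -2.72. The part of a trend along the probe number in these values was not tested.

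Within intermittent hypoxia minus normoxia the classes took different signs at different durations. At 2 weeks 10 of 15 core genes, 13 of 18 regulatory genes and 6 of 17 conjugating enzymes were positive, with medians of 0.27, 0.17 and -0.19, beside 50.3% of 6779 features with a median of 0.00. At 4 weeks 3 of 15 core genes were positive (median -0.17) and 4 of 17 regulatory genes (median -0.22), against 13 of 22 conjugating enzymes (median 0.11) and 51.7% of 8448 features (median 0.02). All 7 alpha subunits were negative at 4 weeks, between -0.80 for Psma4 and -0.03, with a median of -0.31. Of the Psmd genes 12 of 14 were negative (median -0.39), the exceptions being Psmd9 (0.60) and Psmd10 (0.41). Psmc5, an ATPase gene, was positive at 0.70 ± 0.23 (limma adjusted p = 0.406), but its arrays average different probes. Its probe with a value on all 18 arrays had 0.09 and 0.60 in intermittent hypoxia, against 0.09 and -0.07 in normoxia. Genes of a class share their arrays, so the counts by class describe 2 arrays against 2. At 2 weeks the core medians were 0.19 and 0.09 on intermittent hypoxia arrays A and B, against -0.10 and -0.19 in normoxia. The regulatory medians were -0.03 and 0.35, against -0.13 and -0.06, and the high value came from array B, the array with the widest spread (median absolute deviation 0.73), where Psmd6 had 2.08 against -0.24 on array A. The 2-week regulatory result thus rests on that array. At 4 weeks the core medians were -0.12 and -0.20 in intermittent hypoxia, against 0.03 and 0.10 in normoxia, and the regulatory medians 0.01 and -0.23, against 0.08 and 0.20.

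In constant hypoxia minus normoxia the class medians stayed closer to 0 at each duration. At 1, 2 and 4 weeks they were 0.05, 0.02 and 0.06 for the core, 0.13, -0.03 and 0.12 for the regulatory particle, and 0.11, -0.06 and 0.06 for the conjugating enzymes, beside -0.04, -0.03 and -0.03 for all features. Single genes were far from these medians: Ube2t had -1.71 ± 0.44 at 2 weeks (limma adjusted p = 0.187), with normoxia 2 weeks B, its highest array, as the 1 normoxia value, Ube2g1 -0.94 ± 0.24 (adjusted p = 0.171) and Psma3 -0.88 ± 0.23 (adjusted p = 0.169). For Psma3, normoxia 2 weeks B (0.77) had a value from 1 probe, while the other 2-week arrays compared averaged 3. Of these, 1 probe had 0.15 and 0.36 in constant hypoxia, where the other probes were negative.

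**Figure D5:**
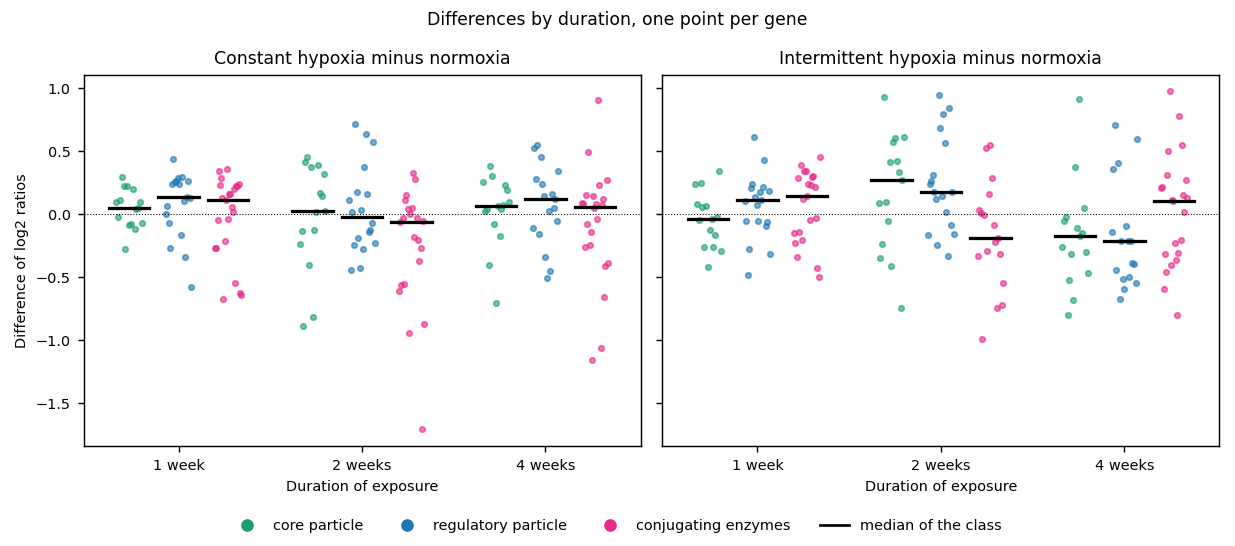
Difference of log2 ratios against normoxia at 1, 2 and 4 weeks (x axis) for constant hypoxia on the left and intermittent hypoxia on the right, with 1 point per gene and a line at the median of each class. In intermittent hypoxia the core and regulatory medians are 0.27 and 0.17 at 2 weeks and -0.17 and -0.22 at 4 weeks.

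Between 4 weeks and 1 week no member passed in constant hypoxia, intermittent hypoxia or normoxia, against 0% of all features each time. Members at an unadjusted p under 0.05 numbered 7 of 63 in constant hypoxia (background 9.29%), 1 of 60 in intermittent hypoxia (4.17%) and 8 of 61 in normoxia (10.8%). In intermittent hypoxia all 7 alpha subunits had a negative 4-week minus 1-week difference (median -0.24), as did 12 of 14 Psmd genes (median -0.23). In normoxia, by contrast, 11 of 14 Psmd genes had a positive one (median 0.26). Of all features, 50.8% were positive in intermittent hypoxia and 47.7% in normoxia. The difference between these changes was tested gene by gene: 0 of 58 members passed for intermittent hypoxia against normoxia and 0 of 60 for constant hypoxia against normoxia, each against 0% of all features. At an unadjusted p under 0.05 there were 8 (background 9.55%) and 2 (5.06%), and without moderation 0 members passed in these comparisons. Without constant hypoxia 4 weeks B, 7 members passed between 4 weeks and 1 week, each in constant hypoxia (11.3%, against 12.8% of all features), and 3 in the difference of that change from normoxia (5.08%, against 8.08%). Both shares are below the background. In constant hypoxia Ube2o had the smallest p of the members, with values of -0.35 and -0.12 at 1 week, -0.02 and -0.20 at 2 weeks, and 1.46 and 0.90 at 4 weeks. Its 4-week minus 1-week difference was 1.41 ± 0.32 (limma adjusted p = 0.453).

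Across the 18 arrays the mean ratio of the core particle correlated with that of the regulatory particle at 0.50, and with that of the conjugating enzymes at -0.02, while regulatory particle and conjugating enzymes gave -0.28. These are descriptions over arrays that share condition and probe layout. A core gene correlated with the mean of the other core genes at a median of 0.19 (9 of 15 positive), and a regulatory gene with its class at 0.27 (13 of 18 positive), beside -0.05 and -0.07 for all other features against the same means. For conjugating enzymes the median was 0.10 (15 of 24 positive), beside 0.06. The genes most like the core particle mean, of 4529 ranked, were Diablo (r = 0.78 over 18 arrays), Acot9 (0.74 over 17), Aldh6a1 (0.73 over 17), Pgam1 (0.73 over 16) and Fads1 (0.72 over 17), and 0 of the 20 highest were proteasome or Ube2 genes.

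Other genes of the pathway were read from lists. Of the ubiquitin and E1 genes 0 of 9 with an estimate passed in constant hypoxia minus normoxia (limma, adjusted), with 1 at an unadjusted p under 0.05, and 6 were positive. The same comparison gave 0 of 27 ligases (2 unadjusted, 9 positive), 0 of 16 deubiquitinases (2 unadjusted, 9 positive) and 0 of 13 shuttle and regulator genes (1 unadjusted, 6 positive). In intermittent hypoxia minus normoxia 0 passed in each list, with 0, 1, 2 and 1 genes at an unadjusted p under 0.05 in the same order of lists. In the mean ratio against 0, constant hypoxia gave 0 calls among 9 ubiquitin and E1 genes (limma, 0 unadjusted), 3 among 28 ligases, 1 among 19 deubiquitinases and 1 among 14 shuttle and regulator genes, against 14% of all features. Normoxia gave 1 call among 27 ligases and 1 among 13 shuttle and regulator genes, and none in the other 2 lists, against 3.31%. Among these calls, Sem1, a small subunit of the regulatory particle outside the naming pattern, was at -0.87 ± 0.21 in constant hypoxia (limma adjusted p = 0.0227). The ligase component Vhl, which recognises hydroxylated hypoxia-inducible factors, was at -0.98 ± 0.24 there (adjusted p = 0.0232), and Ubqln2, a ubiquitin receptor that shuttles substrates, at 0.60 ± 0.14 in normoxia (adjusted p = 0.0448).

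Markers of other cells and states were summarised for the same arrays. The medians of the 5 measured interferon and antigen presentation genes ran from -1.18 to 0.11 in constant hypoxia, from -0.29 to 0.27 in intermittent hypoxia and from -0.41 to 0.21 in normoxia. Those of the 3 immune cell genes ran from -0.44 to 0.02, from -0.34 to 0.49 and from -1.05 to 0.02, and those of the 4 erythroid genes from -0.44 to 0.00, from -0.57 to 0.13 and from -0.32 to 0.14, in the same order of conditions. The 14 proliferation genes, with which Ube2c, Ube2s and Ube2t are commonly expressed, had medians from 0.01 to 0.19, from -0.11 to 0.28 and from -0.02 to 0.18. Their part in the ratios of the members was not tested.

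Different probes of a member often disagreed, and 20 of the 24 members with several probes were averaged over different probes on different arrays. Over 42 probe pairs of 23 genes the median correlation was 0.14, and 12 pairs (28.6%) were below 0, close to the 2996 pairs of all genes with a median of 0.14 and 38% below 0. Psma7 had the closest pair (0.75 over 18 arrays). The typical spread of a member over the 18 arrays (median SD 0.32) was also that of all features (0.33).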

How the data were processed

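Cy5 and Cy3 cDNA of paired kidneys were hybridised to 18 cDNA arrays, per the labels. The authors deposited, array by array, a log2 ratio for the probes that have a value. Base 2 was read from the values, since 2 to the power of a value was a ratio of small whole numbers far more often than with base e or 10. Of background correction, spot filtering, normalization and the numerator nothing is given in the sources used here, nor of the intensity behind a value, so depth is unknown and the number of arrays limits the precision.

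Probe names came from the platform annotation: of 16128 probes, 9604 had 1 symbol, 213 several and 6311 none. Each array was centred on its median over the 9675 features (6231 genes and 3444 probes without a single symbol) with values on 9 or more arrays, which removes any shift common to the array. Probes of a symbol were averaged per array. The fit had 9 group means (limma 3.58.1, R 4.3.3, eBayes, prior df 5.10), with Benjamini-Hochberg adjustment across every feature that gave an estimate, at 0.05. The fits drop missing arrays. All tests are two-sided. The labels name different animals for the arrays of a group. The method was tested on simulated data.

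Members and lists were chosen with earlier results of these data known. Named were all members that passed any test, those with an unadjusted p under 0.05 between conditions, the most positive and most negative of each class, and the 5 genes most like the core mean. Named outside this rule, after their values were seen, were members given for probe or sign patterns, extreme single arrays, calls on leaving out an array or the smallest p within a duration, and genes of other lists. Alternatives were the centring, a running median over 201 probe numbers, missing values, probes apart, 3 condition means, a common spread, no moderation, the array letter as a block, and leaving out arrays. Letters A and B did not pair arrays across groups (36 pairs, correlations of deviations from -0.29 to 0.42, 7 of them over 0.1). Promoter windows are RefSeq's. Figures were drawn in matplotlib.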

Additional observations from a re-analysis of the deposited data

Results flagged for a closer look

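The class medians of each condition and the members called in a mean ratio were examined, as 23 sets of 6 arrays of one condition. Of these, 2 held an array far from the rest, and chance alone would mark about 1 in 20 such sets. Ube2q2 had -2.72 on constant hypoxia 4 weeks A, while the other 5 constant hypoxia arrays lay between -0.94 and -0.14. Ube2s had 0.062 on constant hypoxia 1 week A, while the other 5 lay between -0.60 and -0.41. No cause was tested.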

How the results depend on the processing

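With the values as deposited, not centred, the counts of members called moved to 56 in constant hypoxia minus normoxia, 51 in intermittent minus constant hypoxia, 109 over the 3 durations of constant hypoxia minus normoxia, and 65 for the mean ratio against 0. Of all features, 96.9%, 94.2%, 58.8% and 41.9% of the tests passed in the same order. The class medians then were -0.78 (core), -0.78 (regulatory) and -0.79 (conjugating) in constant hypoxia minus normoxia, and 0.72, 0.75 and 0.77 in intermittent minus constant hypoxia, which is the shift of the constant hypoxia arrays. Signs turned for Psma5 -0.46, Psmb6 -0.60, Psmc2 -0.76, Psmd1 -0.31, Psmd3 -0.49, Psme3 -0.48 and Ube2o -0.51 in constant hypoxia minus normoxia. They turned for Psma5 0.31, Psmb5 0.40, Psmc3 0.61, Psmd1 0.26, Psmd7 0.50, Psme4 0.70, Ube2e1 0.36, Ube2o 0.25 and Ube2q1 0.47 in intermittent minus constant hypoxia, and for the constant hypoxia means of Psmb4 -0.49, Psmd1 -0.25, Psmd3 -0.41 and Ube2v2 -0.41.

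With the running median removed 2 mean ratios passed (Ube2o at 0.55 in constant and Psmd8 at -0.40 in intermittent hypoxia), neither among the 14, or 1.12% of the members' tests against 2.71% of all. Signs turned for Psmc5 (0.11 in constant hypoxia minus normoxia, -0.037 in intermittent minus constant), Psme4 (0.11), Psma4 (-0.0054), Psmc1 (0.0024) and the constant hypoxia mean of Ube2s (0.026). The cause was not tested. Without moderation 9 mean ratios passed (5.06%, against 3.45% of all tests) and 1 difference, Ube2a at 2 weeks of constant hypoxia (-0.61), 1 of 2 features called there. With 3 condition means the conjugating median in intermittent minus constant hypoxia was 0.065, and with probes apart Psmc5 in constant hypoxia minus normoxia was 0.0072.

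Another setting, chosen after seeing the data, dropped intermittent hypoxia 2 weeks B together with constant hypoxia 4 weeks A. The groups of these arrays then held 1 array each. The difference of Ube2t at 2 weeks of constant hypoxia was -1.71, with 1 normoxia array behind it. Calls were made in that comparison and in the mean ratio against 0. They are not counted here, because the fit held groups of 1 array and uses 1 estimate of the spread per feature for all groups. Some of these calls were normoxia means, and the normoxia groups themselves lost no array. The regulatory median in intermittent minus constant hypoxia was -0.19 and Psmb5 in intermittent hypoxia minus normoxia was 0.089.

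Leaving out single arrays gave 0 calls throughout in intermittent hypoxia minus normoxia, 0 to 2 in constant hypoxia minus normoxia, 0 to 6 in intermittent minus constant hypoxia, 0 to 4 within durations of constant hypoxia, 0 to 6 within durations of intermittent hypoxia, 0 to 7 for 4 weeks minus 1 week, 0 to 3 for the difference of that change, and 1 to 25 for the mean ratio against 0. Beside the highest counts, the share of all tests called was 8.65%, 11.6%, 4.06%, 3.31%, 4.39%, 4.1% and 15.6%, in the order of these 7 ranges from constant hypoxia minus normoxia on. Leaving out constant hypoxia 4 weeks B gave each highest count except that within intermittent hypoxia, which came without intermittent hypoxia 2 weeks A. Without constant hypoxia 4 weeks B, the constant hypoxia minus normoxia difference was -0.72 for Psmb1 and -0.82 for Ube2t. Without normoxia 2 weeks A, that of Ube2g1 at 2 weeks was -1.29. The differences ran from -0.57 to 0.089 for Psmb5 and -0.22 to 0.084 for Psmc1 in intermittent hypoxia minus normoxia, and from -0.049 to 0.15 for Psmc2 and -0.17 to 0.0098 for Psmc5 in constant hypoxia minus normoxia.

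The letters share only a number. With the letter as a replicate block, 0 members passed between conditions or durations, and 13 mean ratios passed, 12 of them among the 14 (7.3%, against 8.19% of all tests). The other settings, values on 15 arrays, a common spread and centring on complete features, kept every count within 1.5 times.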
